A study of Danio rerio with 6 samples.

Results

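The genes of protein folding in the endoplasmic reticulum (ER) and of ER-associated degradation were examined in zebrafish embryos that overexpressed Mcpip1. The set holds 42 of the 32057 Ensembl genes counted. Its genes encode the chaperones, lectins and disulfide enzymes of the ER lumen, and the proteins that recognize, retrotranslocate and extract misfolded clients. The exception is *lrrc59*, which was given none of these roles and was kept apart as other. They were taken by gene symbol, and all 42 were found. The name table lists a pair of identifiers as DNAJB9 for *dnajb9a* and *dnajb9b* without telling them apart, so these genes are given here by identifier. The comparison is of 3 Mcpip1 WT libraries with 3 Mcpip1 DN libraries, each prepared from poly(A) RNA of a pool of viable AB/TL embryos at 6 hours post-fertilization (hpf). In both groups mRNA was injected at the 1-cell stage, and the protein was linked through a self-cleaving peptide to the fluorescent protein mTurquoise. Mcpip1 WT embryos received the wild-type zebrafish sequence of this RNase. Mcpip1 DN embryos received the D112N form, in which an aspartic acid of the catalytic center is replaced. The paper describes this form as catalytically inactive, citing earlier work in which 1 mutation of that center removed RNase activity. Uninjected embryos were not analysed here, so no value below is relative to an untreated embryo.

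Secretory and membrane proteins enter the ER unfolded. There they are bound by Hsp70- and Hsp90-type chaperones, are cross-linked by protein disulfide isomerases, and, if they carry N-glycans, cycle through calnexin and calreticulin. Clients that fail to fold are marked by mannose trimming, handed to a membrane ubiquitin ligase and pulled into the cytosol by the ATPase Vcp, also called p97, for degradation by the proteasome. When clients accumulate, the sensors Ire1, Perk and Atf6 raise the transcription of many of these genes, a program known as the unfolded protein response.

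The libraries held between 22581287 and 24662219 counts on genes in Mcpip1 WT and between 17686041 and 23944732 in Mcpip1 DN. The injected gene, *zc3h12a*, took 0.744%, 0.0883% and 0.120% of the gene counts in replicates 1, 2 and 3 of Mcpip1 WT, against 0.150%, 0.0727% and 0.0397% in those of Mcpip1 DN. Counts from injected and endogenous *zc3h12a* cannot be told apart, and replicate 1 of Mcpip1 WT held by far the most. All 13 markers of the shield-stage embryo, among them *gsc*, *tbxta* and *sox17*, were detected in each library. Whole embryos were used, so fewer cells of a type and less RNA per cell cannot be told apart for any gene. The labels do not say whether the pools came from separate clutches, and p-values measure only the spread between these libraries.

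Of the 42 genes, 41 passed the filter on low counts and were tested together with 16126 genes in all, with the quasi-likelihood test of edgeR. Most had slightly higher counts in Mcpip1 WT, with a log2 fold change above 0 in 35 genes (85.4%), against 50.8% of all genes tested. The median log2 fold change was 0.34, against 0.01 over all genes tested. At the threshold of the study, which asks for a fold change over 1.5 and an unadjusted p under 0.05, *lrrc59*, *edem2*, *ufd1l*, *p4hb*, *calr3a* and *pdia3* were higher in Mcpip1 WT and no gene was lower. These 6 of 41 genes compare with 2.14% of all genes past the threshold, 0.874% higher and 1.27% lower. The count is not independent evidence, since *calr3a*, *pdia3*, *p4hb*, *edem2* and *ufd1l* had been picked from these same libraries as higher genes, and the value of *lrrc59* was known when the set was drawn up. Among the other 35 genes tested, 0 were past the threshold, 29 had a log2 fold change above 0, and the median was 0.25. An unadjusted p under 0.05 with edgeR was found in 7 of the 41 genes and in 1 of these other 35, against 2.21% of all genes. No gene of the set had an adjusted p under 0.05 over all genes tested, with edgeR (smallest adjusted p 1.00) or with DESeq2 (smallest adjusted p 0.57).

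**Figure D1:**
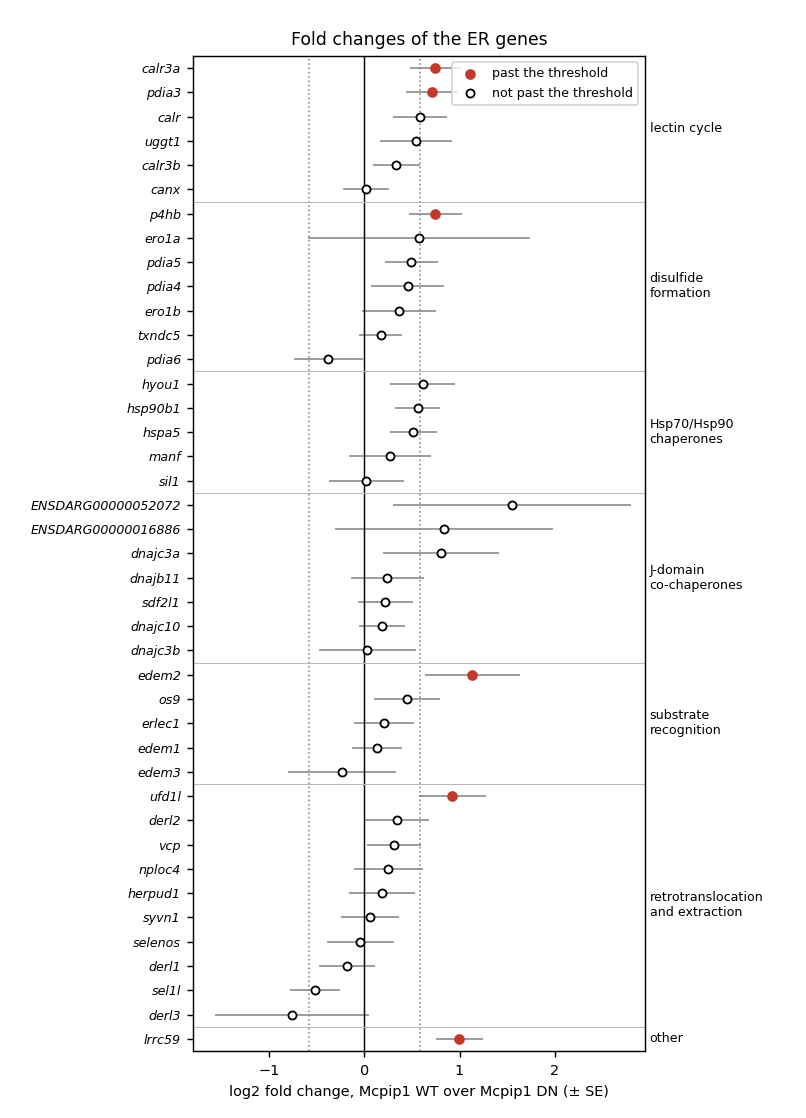
Log2 fold change of Mcpip1 WT over Mcpip1 DN for the 41 genes tested, with a standard error derived from the F statistic of edgeR, grouped by role in the ER. Filled points have a fold change over 1.5 and an unadjusted p under 0.05, and dotted lines mark that fold. The points lie mostly right of 0, from -0.76 in *derl3* to 1.55 in ENSDARG00000052072, and 6 of them are filled.

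Together the 42 genes took 0.676%, 0.494% and 0.664% of the gene counts in replicates 1, 2 and 3 of Mcpip1 WT, against 0.415%, 0.446% and 0.523% in those of Mcpip1 DN. Their mean share was 0.611% ± 0.102 for Mcpip1 WT, against 0.461% ± 0.0558 for Mcpip1 DN (SD, n = 3 each). The groups overlapped in these raw shares, because Mcpip1 WT replicate 2 lay below Mcpip1 DN replicate 3. The shares are not scaled by the TMM normalization factors, which were 0.877 in the former library and 1.11 in the latter. Divided by the factors of their libraries, all Mcpip1 WT shares would lie above those of Mcpip1 DN. *P4hb*, *hspa5*, *vcp*, *hyou1*, *hsp90b1* and *pdia3* together held 52.9% of the counts on the 42 genes. The total includes *lrrc59* and the genes picked from these libraries as higher, *calr3a*, *pdia3*, *p4hb*, *edem2* and *ufd1l*. The difference in share is thus not independent of that choice.

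In 6 genes all 3 Mcpip1 WT libraries lay above the 3 Mcpip1 DN libraries: *lrrc59*, *p4hb*, *pdia3*, *calr3a*, *hsp90b1* and *hspa5*. That is 14.6% of the 41, against 3.97% of all genes tested, and 8.06% of all genes had groups that did not overlap in either direction. Without the genes picked from these libraries and *lrrc59*, it is *hspa5* and *hsp90b1*, or 5.71% of 35 genes. In *sel1l* all Mcpip1 WT libraries lay below those of Mcpip1 DN, as in 4.08% of all genes tested. An exact two-sided permutation test of 3 libraries against 3 cannot give a p below 0.1, which each of these genes reached.

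The gene with the smallest p was *lrrc59* (ENSDARG00000071426), which encodes a leucine-rich repeat protein anchored in the ER membrane. It was placed in none of the classes of folding or degradation genes. It had 3689, 3105 and 2707 normalized counts in replicates 1, 2 and 3 of Mcpip1 WT, against 1734, 1316 and 1704 in the Mcpip1 DN libraries. Normalized counts are read counts that were rescaled so that every library had the same effective size, the mean of the 6. The lowest Mcpip1 WT library was thus well above the highest Mcpip1 DN library. The log2 fold change was 1.00 (standard error, SE, 0.24, unadjusted p = 0.00178, edgeR). When each of the 6 libraries was left out in turn, it alone of the set stayed past the threshold every time, at log2 fold changes between 0.87 and 1.09. Its value was known when the set was drawn up, and these fits reuse the same libraries, so they are not independent evidence. The share of all genes that stayed past the threshold in every fit is not given here.

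**Figure D2:**
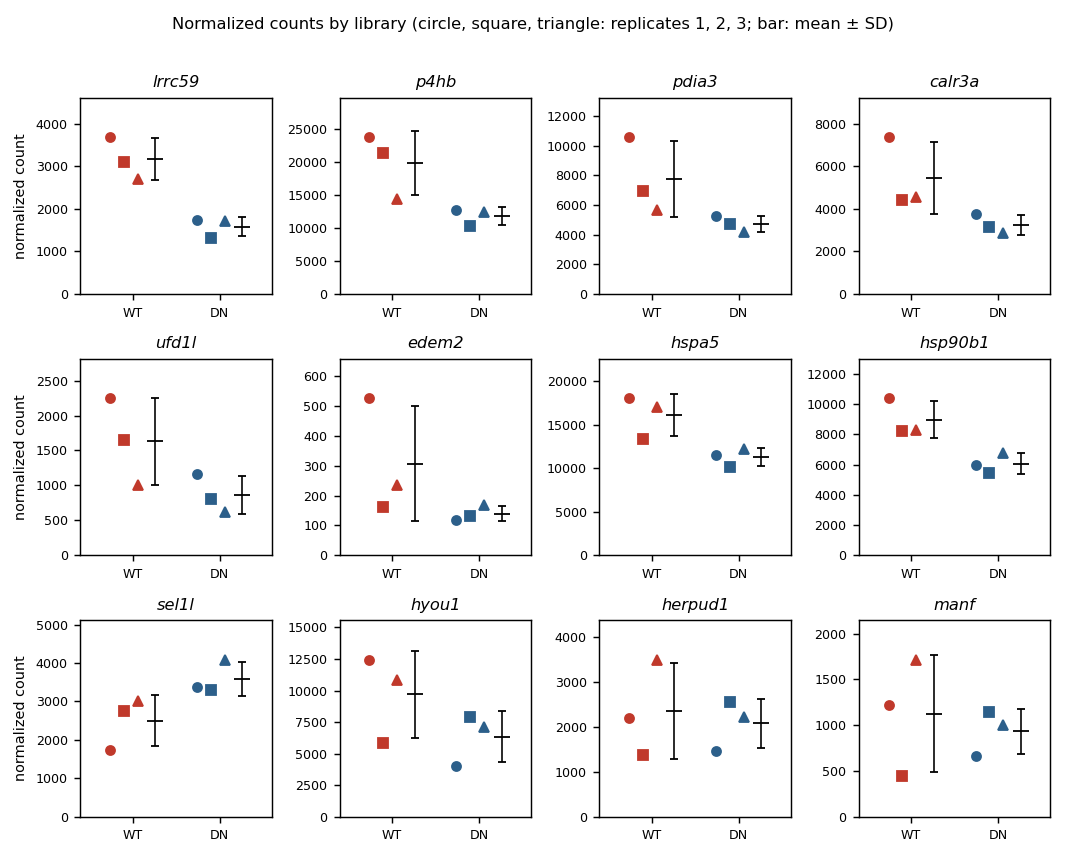
Normalized counts of 12 genes in each library, with Mcpip1 WT in red and Mcpip1 DN in blue (symbols, replicates 1 to 3) and the mean ± SD of each group beside them (n = 3). The Mcpip1 WT symbols of *lrrc59*, *p4hb*, *pdia3*, *calr3a*, *hspa5* and *hsp90b1* lie above those of Mcpip1 DN, those of *sel1l* lie below, and the other genes overlap; *hyou1*, *herpud1* and *manf* were added after their values were seen.

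The lectin cycle retains glycoproteins in the ER until they fold. All 6 of its genes had a log2 fold change above 0, with a median of 0.56, and *calr3a* and *pdia3* were past the threshold. These 2 genes had been picked from these libraries as higher genes, so the class median is not independent of that choice. None of the others was past the threshold. *Calr3a* (ENSDARG00000103979) encodes a calreticulin, the soluble lectin chaperone. It had 7378, 4404 and 4552 normalized counts in replicates 1, 2 and 3 of Mcpip1 WT, against 3767, 3136 and 2846 in the Mcpip1 DN libraries, for a log2 fold change of 0.74 (SE 0.27, unadjusted p = 0.0188, edgeR). The other calreticulin genes had smaller values. *Calr* (ENSDARG00000076290) had 3013, 2242 and 1567 normalized counts for Mcpip1 WT, against 1564, 1334 and 1655 in the Mcpip1 DN libraries (log2 fold change 0.58, unadjusted p = 0.0637, edgeR). For *calr3b* (ENSDARG00000102808) these were 5860, 4883 and 4149 in the Mcpip1 WT libraries, against 4440, 3121 and 4232 in the Mcpip1 DN libraries (log2 fold change 0.34). In both of these genes replicate 3 of Mcpip1 WT fell among the Mcpip1 DN libraries. The difference between the fold changes of the paralogs was not tested, and how reads shared between paralogs were counted is not given in the sources used here.

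*Pdia3* (ENSDARG00000102640) encodes the disulfide isomerase ERp57, which works with both lectins. It had 10588, 6961 and 5653 normalized counts for Mcpip1 WT, against 5243, 4742 and 4183 in the Mcpip1 DN libraries, for a log2 fold change of 0.71 (SE 0.28, unadjusted p = 0.0262, edgeR). The separation was narrow at replicate 3 of Mcpip1 WT. *Uggt1*, which sends unfolded glycoproteins back for another round, had a log2 fold change of 0.54 (SE 0.38), and replicate 2 of Mcpip1 WT, at 530.4 normalized counts, was its lowest library. *Canx* (ENSDARG00000037488) encodes calnexin, the lectin chaperone of the ER membrane. Its values were 4924, 6455 and 5601 normalized counts for Mcpip1 WT, against 4962, 6726 and 5061 in the Mcpip1 DN libraries, with a log2 fold change of 0.02 (SE 0.24).

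Among 8 genes of disulfide formation, 7 were tested, 6 had a log2 fold change above 0, and the median was 0.45. *P4hb* (ENSDARG00000105116), protein disulfide isomerase itself, was past the threshold. It had 23733, 21285 and 14366 normalized counts in replicates 1, 2 and 3 of Mcpip1 WT, against 12762, 10225 and 12424 in the Mcpip1 DN libraries, for a log2 fold change of 0.75 (SE 0.28, unadjusted p = 0.0203, edgeR). *Pdia4*, *pdia5* and *txndc5* encode further isomerases of the family, and had log2 fold changes of 0.45, 0.49 and 0.17 with overlapping groups. *Pdia6* (ENSDARG00000009001) had the lowest value of the class, -0.38 (SE 0.37). Its libraries formed a pattern of their own, with 1561, 3418 and 1492 normalized counts for Mcpip1 WT, against 3190, 3429 and 1804 in the Mcpip1 DN libraries. Replicate 2 of Mcpip1 WT thus sat with the highest Mcpip1 DN libraries, and without it *pdia6* was past the threshold and lower in Mcpip1 WT (log2 fold change -0.88, unadjusted p = 0.0201, edgeR).

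*Ero1a* and *ero1b* encode the oxidases that recharge these isomerases. *Ero1b* (ENSDARG00000103915) had 396, 259 and 259 normalized counts for Mcpip1 WT, against 300.2, 205 and 206 in the Mcpip1 DN libraries, for a log2 fold change of 0.36 (SE 0.39). *Ero1a* (ENSDARG00000015228) was sparse, with 64, 5 and 40 counts in the Mcpip1 WT libraries, against 12, 9 and 45 in the Mcpip1 DN libraries. Its log2 fold change of 0.57 had a standard error of 1.17, so neither direction could be read at this depth. *Pdia2* (ENSDARG00000018263), an isomerase known from the pancreas in mammals, did not pass the filter. It had 0, 8 and 3 counts in the Mcpip1 WT libraries, against 0, 9 and 0 in the Mcpip1 DN libraries, and a count of 0 allows up to 3 counts.

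The general chaperones *hspa5*, *hsp90b1* and *hyou1* had similar fold changes, and none was past the threshold. *Hspa5* (ENSDARG00000103846) encodes BiP, the Hsp70 of the ER. It had 18003, 13392 and 16973 normalized counts in replicates 1, 2 and 3 of Mcpip1 WT, against 11563, 10084 and 12184 in the Mcpip1 DN libraries, a fold change of 1.43 (log2 fold change 0.52, SE 0.25, unadjusted p = 0.0625, edgeR). *Hsp90b1* (ENSDARG00000003570) encodes Grp94, the Hsp90 of the ER. It had 10378, 8222 and 8274 normalized counts for Mcpip1 WT, against 5947, 5471 and 6785 in the Mcpip1 DN libraries, a fold change of 1.48 (log2 fold change 0.56, SE 0.24, unadjusted p = 0.0367, edgeR), just short of the fold of 1.5 that the threshold asks for. In both genes the groups did not overlap.

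*Hyou1* (ENSDARG00000013670) encodes Grp170, a nucleotide exchange factor for BiP. Its log2 fold change was 0.61 (SE 0.34, unadjusted p = 0.1, edgeR), and the spread was wide, with 12440, 5834 and 10870 normalized counts for Mcpip1 WT, against 4039, 7882 and 7111 in the Mcpip1 DN libraries. Replicate 2 of Mcpip1 WT lay below Mcpip1 DN replicates 2 and 3. *Manf* encodes a small secreted protein that binds BiP, and had 1221, 444 and 1715 normalized counts for Mcpip1 WT, against 664, 1142 and 1002 in the Mcpip1 DN libraries (log2 fold change 0.27, SE 0.44). *Sil1*, the other exchange factor of BiP, had 332, 430.0 and 218 normalized counts for Mcpip1 WT, against 409, 253 and 305 in the Mcpip1 DN libraries (log2 fold change 0.02). Replicate 2 of Mcpip1 WT was thus the lowest of the 6 libraries for *manf* and the highest for *sil1*.

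The J-domain proteins deliver clients to BiP. The class of 7 genes also counts *sdf2l1*, which encodes a partner of the J-domain protein ERdj3. All 7 had a log2 fold change above 0 with none past the threshold. The highest value of the whole set, 1.55, belonged to ENSDARG00000052072, listed as DNAJB9. It rested on few reads, with 98, 40 and 43 counts in the Mcpip1 WT libraries, against 0, 12 and 49 in the Mcpip1 DN libraries, and had a standard error of 1.26 (unadjusted p = 0.242, edgeR). The other gene listed as DNAJB9, ENSDARG00000016886, had 77, 32 and 180 counts in the Mcpip1 WT libraries, against 0, 65 and 86 in the Mcpip1 DN libraries (log2 fold change 0.84, SE 1.15). Mammalian DNAJB9, or ERdj4, is a strongly induced target of the unfolded protein response. Both genes were at 0 in Mcpip1 DN replicate 1, a count that allows up to 3, and both had counts in replicate 3 of Mcpip1 DN within the range of Mcpip1 WT.

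*Dnajc3a* (ENSDARG00000041110) and *dnajc3b* (ENSDARG00000017874) encode P58IPK, a co-chaperone that in mammals also restrains the sensor Perk. *Dnajc3a* had 196, 140.3 and 173 normalized counts for Mcpip1 WT, against 28.9, 97.1 and 165 in the Mcpip1 DN libraries, for a log2 fold change of 0.80 (SE 0.61). *Dnajc3b* had 461, 140.3 and 317 in the Mcpip1 WT libraries, against 244, 187 and 468 in the Mcpip1 DN libraries, for a log2 fold change of 0.03 (SE 0.51). The wide gap inside Mcpip1 DN for *dnajc3a* came from replicate 1, at 21 counts. *Dnajb11*, or ERdj3, and its partner *sdf2l1* had log2 fold changes of 0.24 and 0.22. *Dnajc10*, or ERdj5, a reductase that opens disulfides before export, was the most even gene of those with at least 100 counts in every library, since its highest library was 1.27-fold above its lowest.

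Among the genes that recognize clients for degradation, *edem2* was past the threshold and the median log2 fold change of the 5 genes was 0.21. *Edem2* (ENSDARG00000028448) belongs to the mannosidase family that trims the glycan of misfolded proteins. It had 525, 161 and 235 normalized counts in replicates 1, 2 and 3 of Mcpip1 WT, against 118, 132 and 168 in the Mcpip1 DN libraries, for a log2 fold change of 1.14 (SE 0.50, unadjusted p = 0.0433, edgeR). The groups overlapped, Mcpip1 WT replicate 1 was far above the rest, and without it the log2 fold change was 0.51 (unadjusted p = 0.34, edgeR). Its relatives had values nearer to 0, and the difference was not tested. *Edem1* had a log2 fold change of 0.13 (SE 0.26). *Edem3* (ENSDARG00000074129) had 152, 45.0 and 169 normalized counts for Mcpip1 WT, against 111.6, 164 and 156 in the Mcpip1 DN libraries (log2 fold change -0.23, SE 0.57), low in replicate 2 of Mcpip1 WT only. The lectins *os9* and *erlec1*, which read the trimmed glycan, had log2 fold changes of 0.45 and 0.21 with overlapping groups.

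The 10 genes of retrotranslocation and extraction had the lowest median of the 6 classes, with a log2 fold change of 0.12, 6 values above 0 and 4 below. The class medians include any genes picked from these libraries. *Sel1l* (ENSDARG00000004581) encodes the adaptor of the ubiquitin ligase Hrd1. It had 1749, 2740 and 3001 normalized counts in replicates 1, 2 and 3 of Mcpip1 WT, against 3375, 3293 and 4085 in the Mcpip1 DN libraries, for a log2 fold change of -0.52 (SE 0.26, unadjusted p = 0.0725, edgeR). It did not pass the threshold, and all 3 Mcpip1 WT libraries were the lower ones. *Syvn1*, which encodes Hrd1, had 2445, 3168 and 4067 normalized counts for Mcpip1 WT, against 3020, 2015 and 4265 in the Mcpip1 DN libraries (log2 fold change 0.06, SE 0.31). The derlins, which form the membrane channel with Hrd1, had log2 fold changes of -0.18 in *derl1*, 0.34 in *derl2* and -0.76 in *derl3*. *Derl3* (ENSDARG00000033871) was the lowest of the whole set, on 39, 50 and 38 counts in the Mcpip1 WT libraries, against 15, 63 and 130 in the Mcpip1 DN libraries. Its value was 0.04 without Mcpip1 DN replicate 3. *Herpud1*, which tethers the complex and is strongly induced by ER stress in mammals, had 2208, 1372 and 3498 normalized counts for Mcpip1 WT, against 1472, 2553 and 2213 in the Mcpip1 DN libraries (log2 fold change 0.18, SE 0.35).

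*Ufd1l* (ENSDARG00000010051), listed as UFD1, encodes a cofactor that links p97 to ubiquitinated clients. It was past the threshold, with 2246, 1656 and 999 normalized counts for Mcpip1 WT, against 1161, 804 and 619 in the Mcpip1 DN libraries, for a log2 fold change of 0.92 (SE 0.35, unadjusted p = 0.024, edgeR). Replicate 3 of Mcpip1 WT lay below replicate 1 of Mcpip1 DN. The partners of Ufd1 in the same complex had smaller values. That difference was not tested, and *ufd1l* had been picked from these libraries as a higher gene. *Nploc4* had a log2 fold change of 0.25 (SE 0.36). *Vcp* (ENSDARG00000020008), the p97 ATPase, had 11982, 16745 and 8963 normalized counts for Mcpip1 WT, against 11672, 9999 and 8804 in the Mcpip1 DN libraries (log2 fold change 0.31, SE 0.29). *Selenos*, a selenoprotein that recruits p97 to the membrane, had a log2 fold change of -0.04 (SE 0.35).

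**Figure D3:**
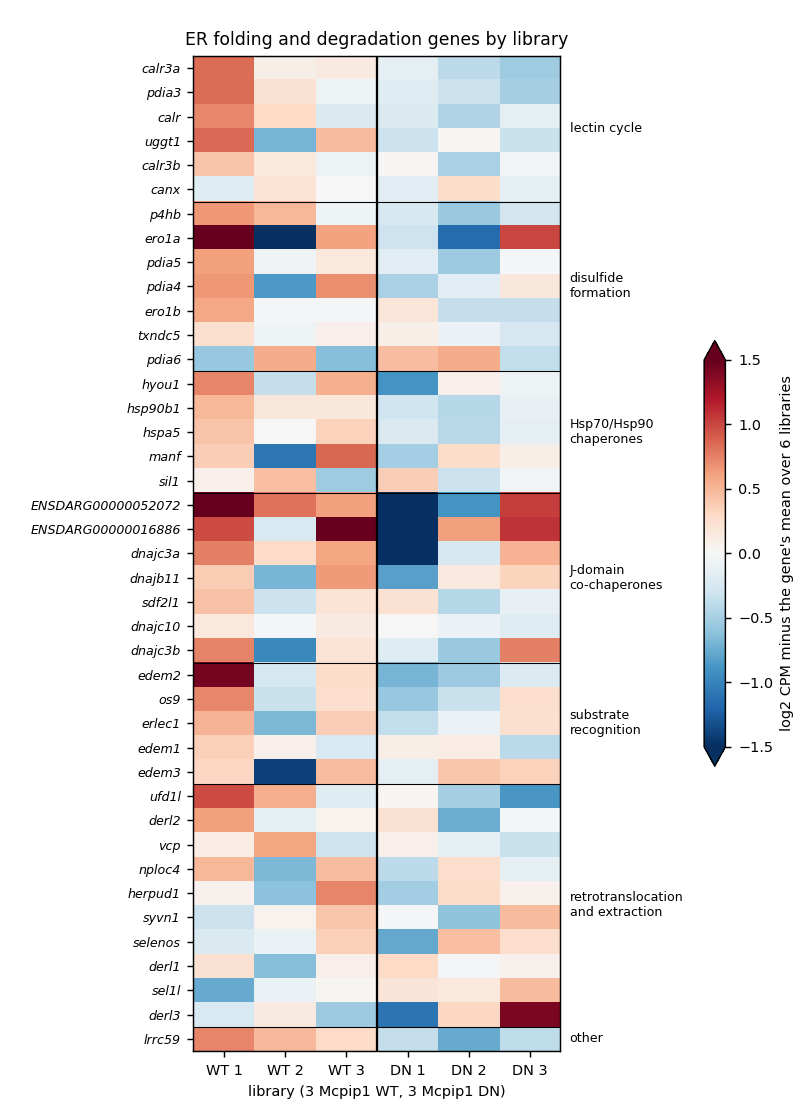
Log2 CPM of each of the 41 genes in each library, minus the mean of that gene over the 6 libraries, by class and, within a class, by fold change. Mcpip1 WT replicate 1 is the column with the most red, being the highest library in 25 of the 41 genes, and colors are capped at 1.5 in both directions.

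The differences were spread unevenly over the libraries. Mcpip1 WT replicate 1 was the highest of the 6 libraries in 25 of the 41 genes (61.0%), against 18.2% of all genes tested. Leaving aside the genes picked from these libraries, it was highest in 20 of 36 (55.6%). These 36 still hold *lrrc59*, which was also highest in that library and whose value was known beforehand. The median deviation of the 41 genes from their own means was 0.50, -0.05 and 0.20 on the log2 scale in replicates 1, 2 and 3 of Mcpip1 WT, against -0.21, -0.23 and -0.05 in those of Mcpip1 DN. Replicate 2 of Mcpip1 WT and replicate 3 of Mcpip1 DN were thus level. Over all genes tested the same medians lay between -0.01 and 0.10. Replicate 1 of Mcpip1 WT also had the most *zc3h12a*, with 170242 normalized counts. Replicates 2 and 3 of Mcpip1 WT had nearly the same amount, 22302 and 22767, and their medians differed. Mcpip1 DN replicate 1, at 36491, had the second highest *zc3h12a* and one of the lowest medians. Whether the amount of injected mRNA took part in the pattern was not tested.

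**Figure D4:**
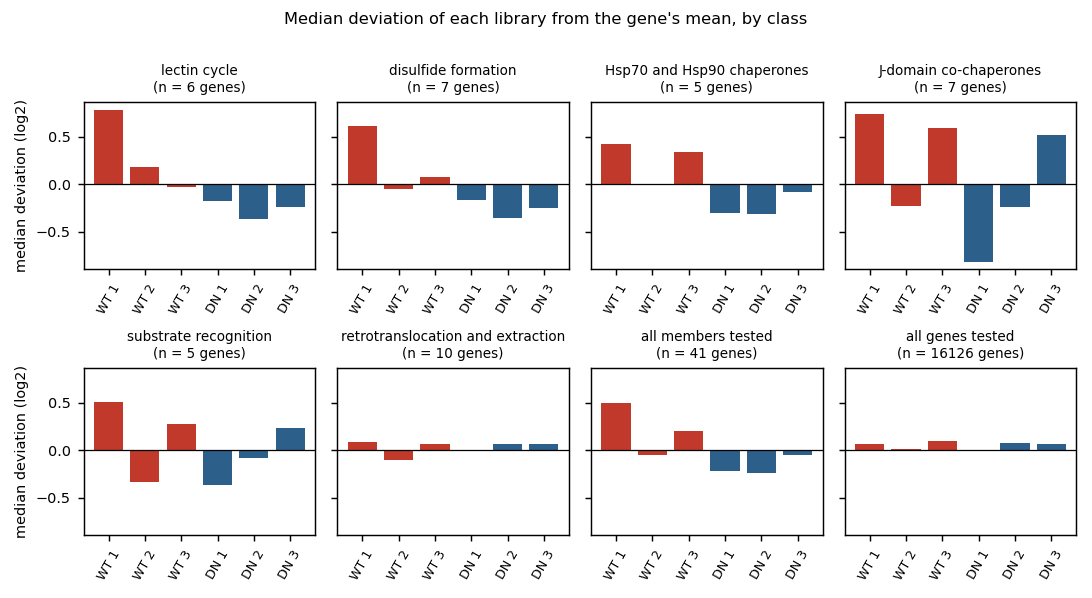
Median deviation of each library from the mean of each gene (log2), for the 6 classes, the 41 genes and all genes tested, with Mcpip1 WT in red and Mcpip1 DN in blue. The classes include the genes picked from these libraries. In the lectin cycle the bars are 0.78, 0.19 and -0.03 for Mcpip1 WT, against -0.17, -0.36 and -0.24 for Mcpip1 DN, whereas the genes of retrotranslocation and extraction stay between -0.10 and 0.09.

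The classes did not share one order of libraries. In the lectin cycle, with the picked genes *calr3a* and *pdia3* included, the 3 Mcpip1 WT medians all lay above those of Mcpip1 DN. In the J-domain class they were 0.74, -0.23 and 0.59 for Mcpip1 WT, against -0.81, -0.23 and 0.52 for Mcpip1 DN, so that replicate 3 of Mcpip1 DN stood with the high Mcpip1 WT libraries. Replicate 2 was the lowest of the Mcpip1 WT libraries in 24 of the 41 genes (58.5%), against 39.2% of all genes. Within Mcpip1 DN, replicate 1 was the lowest in 16 genes (39.0%), close to the 39.9% of all genes. The shield-stage markers also differed between libraries. Their summed normalized counts were 102671, 138914 and 57716 in replicates 1, 2 and 3 of Mcpip1 WT, against 140352, 74056 and 80887 in those of Mcpip1 DN, with none of the 13 at 0. The sum was thus highest in replicate 1 of Mcpip1 DN and replicate 2 of Mcpip1 WT, and its part in the values of the ER genes was not tested. No marker of the enveloping layer (8 tested, median log2 fold change -0.21), the yolk syncytial layer (4 of 6 tested, -0.19) or the hatching gland (2 of 6 tested, -0.05) was past the threshold or had an unadjusted p under 0.05 with edgeR.

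**Figure D5:**
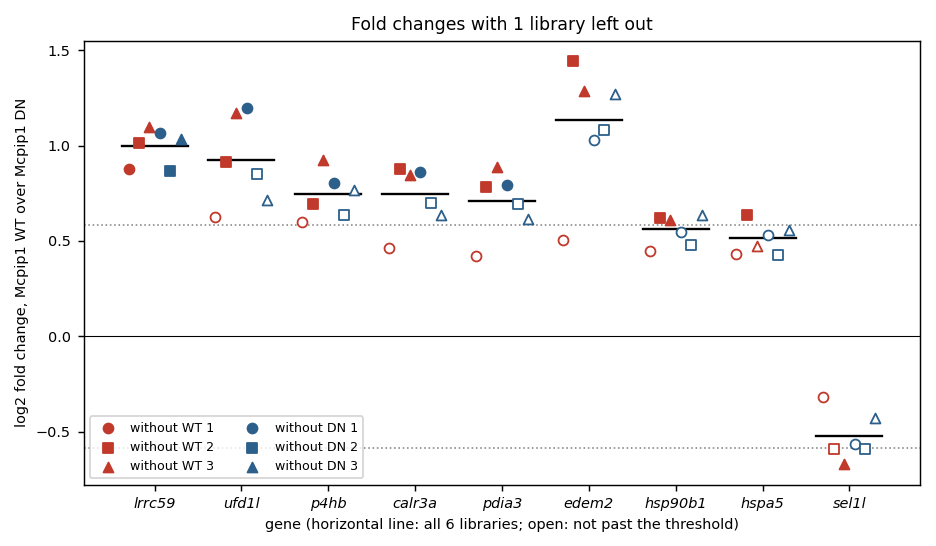
Log2 fold change of Mcpip1 WT over Mcpip1 DN for 9 genes, with all 6 libraries (line) and with each library left out (red for Mcpip1 WT, blue for Mcpip1 DN, filled when past the threshold). *Lrrc59* is filled in all 6 fits, *p4hb*, *calr3a*, *pdia3* and *ufd1l* in 3 each, and *edem2* in 2.

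The number of genes past the threshold depended on single libraries. Without Mcpip1 WT replicate 1 only *lrrc59* was left, with 0.406% of all genes called higher in that fit. Without Mcpip1 DN replicate 2 it was again only *lrrc59* (1.22% of all genes), and without Mcpip1 DN replicate 3 it was *lrrc59* and ENSDARG00000052072 (0.863%). Without Mcpip1 DN replicate 1, *edem2* dropped out and 5 genes stayed (1.33%). Without Mcpip1 WT replicate 2, 11 genes were higher, against 1.2% of all genes, and these added *hspa5*, *hsp90b1*, *hyou1*, *pdia4* and *uggt1* to the 6 genes above, with *pdia6* lower (3.03% of all genes lower). Without Mcpip1 WT replicate 3, *calr* and *hsp90b1* joined the 6 (1.73%) and *sel1l* was lower (2.50%). *Calr3a*, *pdia3*, *p4hb*, *ufd1l* and *edem2* had log2 fold changes of 0.47, 0.42, 0.60, 0.63 and 0.51 without Mcpip1 WT replicate 1, all still above 0. The same genes had 0.70, 0.69, 0.64, 0.85 and 1.08 without Mcpip1 DN replicate 2, and 0.64, 0.61, 0.77, 0.71 and 1.27 without Mcpip1 DN replicate 3, so that the folds stayed over 1.5 while the unadjusted p (edgeR) was no longer under 0.05.

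Neighboring steps of the secretory pathway were followed with lists written from general knowledge, though with earlier results of these data known. Of 13 genes for the sensors and transcription factors of the unfolded protein response, 0 were past the threshold with edgeR (0 at an unadjusted p under 0.05), 7 had a log2 fold change above 0, and the median was 0.08. XBP1 (ENSDARG00000035622), the transcription factor spliced by Ire1, had 19580, 24669 and 10695 normalized counts for Mcpip1 WT, against 18279, 13348 and 11763 in the Mcpip1 DN libraries (log2 fold change 0.34, SE 0.33). Counts per gene add its spliced and unspliced forms together. *Atf6* and DDIT3, the gene of the pro-apoptotic factor Chop, had log2 fold changes of 0.31 (SE 0.34) and 0.24 (SE 0.56). Other genes of the list had values below 0, and 3 of them are named after their values were seen. *Ern1*, a gene of Ire1, had a log2 fold change of -0.71 (SE 0.42) and *atf4b*, a transcription factor downstream of Perk, of -0.34 (SE 0.39), both with overlapping groups. *Ern2*, the paralog of *ern1*, went the other way. It had 47.7, 32.8 and 52.0 normalized counts for Mcpip1 WT, against 0, 37.9 and 14.7 for Mcpip1 DN (log2 fold change 1.31, SE 1.27). CREB3L1 (ENSDARG00000015793), a membrane-bound transcription factor of the Atf6 type, stood at 25.3, 23.5 and 21.5 normalized counts for Mcpip1 WT, against 67.5, 52.7 and 64.8 for Mcpip1 DN (log2 fold change -1.39, SE 0.78, unadjusted p = 0.103, edgeR), all Mcpip1 WT libraries being lower. That is 1 gene of 13, against 4.08% of all genes tested, and no gene of this list had all Mcpip1 WT libraries higher. The median was 0.16 over 19 genes of import into the ER and 0.04 over 22 genes of COPII export and retrieval, with 0 genes past the threshold in either list (0 at an unadjusted p under 0.05, edgeR). Over 19 genes of N-glycosylation and glycan trimming it was 0.15, and RPN2 (ENSDARG00000009724), a subunit of the oligosaccharyltransferase, was past the threshold. For these lists, the share of all genes tested past the threshold was 2.14% in either direction and 0.874% higher. A single gene of 19 is not read as a result about the list. RPN2 had 1740, 1695 and 1050 normalized counts for Mcpip1 WT, against 953, 1024 and 854 in the Mcpip1 DN libraries, for a log2 fold change of 0.66 (SE 0.28, unadjusted p = 0.0386, edgeR). All Mcpip1 WT libraries lay above those of Mcpip1 DN in 2 genes of this list and 2 of the COPII list, against 3.97% of all genes tested. They lay below in 0 genes of either list, and the import list had 0 in both directions.

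Of 16 genes of the cytosolic heat shock list, the inducible Hsp70 genes *hsp70.1*, *hsp70.3* and *hsp70l* were past the threshold. These are 3 of 16, against 0.874% of all genes tested called higher. The paper had already named genes of the hsp70 family as higher in these same libraries, so this count is not independent evidence. The median log2 fold change was 0.17, with 11 values above 0 and 5 below. In *dnajb1b* and HSPE1 all Mcpip1 WT libraries lay below those of Mcpip1 DN (log2 fold changes -0.54, SE 0.27, and -0.56, SE 0.38). That is 2 of 16 genes, against 4.08% of all genes tested, and neither was past the threshold. In *hsp70.3* (ENSDARG00000021924) the values were 2109, 190.4 and 2440 normalized counts for Mcpip1 WT, against 41.3, 137 and 164 in the Mcpip1 DN libraries, for a log2 fold change of 3.78 (SE 0.81). Replicate 2 of Mcpip1 WT thus lay just above the highest Mcpip1 DN library and far below the others of its group. The groups overlapped in *hsp70l* and *hsp70.1*. *Hsp70l* (ENSDARG00000055723) stood at 1058, 3.07 and 1990 normalized counts for Mcpip1 WT, against 23.4, 87.9 and 13.7 for Mcpip1 DN, so that Mcpip1 WT replicate 2 was the lowest library. *Hsp70.1* (ENSDARG00000029688) stood at 437, 1.02 and 738 normalized counts for Mcpip1 WT, against 0, 8.33 and 20.6 for Mcpip1 DN. HSP90AA1, which was not among the 16 genes, stood at 3160, 438 and 3744 normalized counts for Mcpip1 WT. It had 258, 600 and 234 in the Mcpip1 DN libraries, so the groups overlapped. Replicates 1 and 3 of Mcpip1 WT, the high libraries for all 3 Hsp70 genes, were also the highest pair in 14 of the 41 ER genes (34.1%), *hspa5*, *hsp90b1* and *hyou1* among them, against 8.15% of all genes tested. The 14 also hold *calr3a* and *edem2*, which were picked from these libraries as higher genes, so the share is not independent of that choice. Other ER genes had a different order. Replicates 1 and 2 of Mcpip1 WT were the highest pair in 7 of the 41 (17.1%), against 8.68% of all genes tested. Among these were *lrrc59* and the picked genes *p4hb*, *pdia3* and *ufd1l*, with replicate 3 the lowest of Mcpip1 WT. Whether the heat shock genes and the ER genes moved for a shared reason was not tested.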

How the data were processed

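Poly(A) RNA of pooled zebrafish embryos was sequenced by the authors on an Ion Torrent instrument. The deposited counts are whole, unnormalized read counts per Ensembl gene, 1 table per library. The submitters' processing notes name STAR 2.7.10a, Bowtie2 2.4.4, HTSeq and the genome build GRCz11, and the strand setting, annotation release and counter version are not given in the sources used here. The 5 rows of reads given to no gene (16.5% to 26.1% of counts) were left out. Of 32057 identifiers, 28988 matched a symbol in an Ensembl name table. Counts were filtered with filterByExpr (minimum count 10), normalized with TMM and tested with the quasi-likelihood F-test of edgeR 4.0.16 in R 4.3.3, with both groups and no covariate. P-values were adjusted by the method of Benjamini and Hochberg over all 16126 genes tested. The SE is the absolute log2 fold change divided by the square root of the F statistic, since this test reports none. The tests were first tried on simulated data. Normalized counts are counts divided by the effective library size and multiplied by its mean. Deviations are log2 CPM (prior count 2) minus the mean of the gene. Alternatives used DESeq2 1.42.0, its size factors, other filters, normalization without *zc3h12a*, a term for the replicate number, and each library left out. Intervals and floors (3 counts for a 0) cover counting error only.

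The genes and lists were chosen with earlier results of these data known. Values per library are given for genes past the threshold, genes whose groups did not overlap, the highest and lowest fold change of each class, and paralogs. *Herpud1*, *manf*, *syvn1*, *vcp* and *pdia2* were added after their values were seen. Genes outside the set are named when past the threshold, or as *zc3h12a*, *hsp70.3*, *hsp70l*, HSP90AA1, XBP1, *atf6* and DDIT3. CREB3L1, *ern1*, *ern2*, *atf4b*, *dnajb1b* and HSPE1 were added after their values were seen. Gene lengths were not used, so levels are not compared between genes. Close paralogs (the calreticulins, *dnajc3a* and *dnajc3b*, *ero1a* and *ero1b*, the DNAJB9 pair) and genes overlapping others are uncertain.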

Additional observations from a re-analysis of the deposited data

How the results depend on the processing

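With DESeq2 on the same genes or on all genes with a count, with its size factors in edgeR, without *zc3h12a* in the normalization, or with a minimum count of 50 (38 genes tested), 6 genes of the set were higher and 0 lower, as reported, with 0.812% to 1.2% of all genes higher. Without the filter *hyou1* was added (7 genes, with 1.37% of all genes higher). Whether the replicate numbers pair the libraries could not be settled with 3 libraries per group. The correlations of same-numbered deviations were 0.01, -0.08 and 0.30, and 3 of 6 libraries correlated best with their own number. Between unlike numbers they ranged from -0.36 (Mcpip1 WT replicate 3 with Mcpip1 DN replicate 1) to 0.29 (Mcpip1 WT replicate 2 with Mcpip1 DN replicate 1). With a replicate block 5 genes were higher, without *edem2*, the median log2 fold change of the set was 0.27, and the sign turned in *dnajc3b* (-0.026), *sil1* (-0.010) and *selenos* (0.027). Leaving out 1 library gave 1 to 11 genes higher and 0 to 1 lower, and a median log2 fold change between 0.20 and 0.54. In the same fits the log2 fold change changed sign, with ranges of -0.084 to 0.16 in *canx*, -0.037 to 0.54 in *dnajb11*, -0.38 to 0.48 in *dnajc3b*, -0.030 to 0.26 in *edem1*, -0.55 to 0.16 in *edem3*, -0.18 to 0.34 in *syvn1* and -0.36 to 0.038 in *derl1*. The ranges were -1.19 to 0.040 in *derl3*, -0.22 to 0.46 in *herpud1*, -0.0060 to 0.49 in *erlec1*, -0.17 to 0.65 in *manf*, -0.26 to 1.43 in *ero1a*, -0.23 to 0.24 in *sil1* and -0.33 to 0.19 in *selenos*. The cause of these changes was not tested. The SE of the genes lay between 0.23 and 1.26 with a median of 0.34, and 8 genes had fewer than 100 counts in a library, so that differences of the size of the median were mostly not detectable here.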
